A study of Homo sapiens with 4 samples.

Results

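The genes of the tricarboxylic acid (TCA) cycle and of pyruvate entry into it were followed in RNA-seq libraries of cells treated with dBET1. The set holds 34 of the 64252 Ensembl genes in the count table. The genes were chosen by name for their place in the pathway, with earlier results of these data known. Each of the 34 was found by its Ensembl identifier, 33 passed the count filter of edgeR and 1, PDK2, did not. The cells are labelled NB4, the name of a line grown from acute promyelocytic leukemia. One group received 8 μM dBET1 for 24 h (2 libraries) and the other DMSO, its solvent, for 24 h (2 libraries). dBET1 is a proteolysis-targeting chimera that joins a ligand of the BET bromodomain proteins to a ligand of CRBN, an adaptor of an E3 ubiquitin ligase. The labels do not say whether the libraries of a group came from separate cultures, so the p-values measure the spread between these libraries only.

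Pyruvate made by glycolysis enters mitochondria through a carrier of MPC1 and MPC2. There the pyruvate dehydrogenase (PDH) complex turns it into acetyl-CoA, PDH kinases (PDK) switch the complex off by phosphorylation, and PDH phosphatases (PDP) switch it on again. Citrate synthase joins acetyl-CoA to oxaloacetate, and the cycle oxidizes the product back to oxaloacetate while it yields NADH for the respiratory chain. Pyruvate carboxylase refills the cycle, and citrate, malate and glutamate link it to lipid and amino acid synthesis.

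The libraries held 28019956 to 34685645 counts, and replicates differed beyond counting error. Levels are given below as CPM, a gene's counts relative to the size of its library, which was scaled with TMM factors to make libraries comparable. A CPM is a share of the counted RNA, so fewer transcripts of a gene per cell, a change in all other RNA and a change in the cells present cannot be told apart. The label was set against marker genes. Of 9 neutrophil granule and promyelocyte genes, ELANE and CTSG had 0 counts in the 4 libraries. MPO had 0 counts in both DMSO libraries and 22 and 10 counts with dBET1. MPO was called higher, but it passed the count filter only through the dBET1 group, so the call is no separate support for a rise. SPI1, at 27.7 and 28.8 CPM with DMSO, and CD33, at 9.90 and 11.9 CPM, carried most of the list, which summed to 41.1 and 44 CPM with DMSO and to 36.1 and 37.1 CPM with dBET1. The 12 erythroid genes, HBG2 and GATA1 among them, summed to 6517 and 7859 CPM with DMSO and to 3920 and 3843 CPM with dBET1. At an adjusted p under 0.05 (edgeR), 10 of the 12 were lower after dBET1. This is 83.3%, beside 27.6% of all tested genes and 42.9% of those with a mean of at least 10 CPM. With a limit of 1 on the absolute log2 fold change added, 5 were lower (41.7%, beside 8.54% and 10.3%). The granule genes MPO, ELANE, CTSG, PRTN3 and AZU1 were thus at or near 0, while the erythroid genes were abundant. These markers do not bear out the label of a promyelocytic line. The identity of the cells was not tested, and the cell line is named here as the libraries are labelled. The erythroid genes fell in the same libraries as the members described here, and their part in the members' values was not tested.

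Most members were lower after dBET1. At an adjusted p under 0.05 (edgeR's quasi-likelihood test, Benjamini-Hochberg over all 17971 tested genes) 24 of the 33 tested members were lower and 3 were higher, while 6 did not pass. In either direction 55.6% of all tested genes passed. The lower members made up 72.7%, beside 27.6% of all tested genes and 42.9% of the 9724 tested genes with a mean of at least 10 CPM, of which 64.9% passed in either direction. The higher members made up 9.09%, beside 28% and 22%. The 3 higher members were PDK4, OGDH and ME1. With a limit of 1 on the absolute log2 fold change added, 4 members were lower (PDHA1, PDK3, MPC1 and IDH3B; 12.1%, beside 8.54% of all tested genes and 10.3% of the more abundant ones), and 1 was higher (PDK4; 3.03%, beside 16.9% and 5.31%). Most falls were therefore smaller than the limit. The median log2 fold change was -0.47 over the 33 tested members, 0.048 over all tested genes and -0.19 over the more abundant ones. Together the 34 members took 0.381% and 0.363% of all counts with DMSO and 0.280% and 0.281% with dBET1, a share that needs no scaling factor. In 28 of the 33 tested members both dBET1 libraries lay below both DMSO libraries (84.8%, beside 37.4% of all tested genes and 53% of the more abundant ones), and in 3 both lay above (beside 41.9% of all tested genes).

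Of the 24 lower calls, 16 were made in each of 12 alternative analyses. OGDH was called in 10 of the 12 and ME1 in 4. PDK4 was called in the 10 that tested it, but it passes a count filter only through the group in which it is high, so these calls are no separate support for its rise. Scaling by total counts only moved the median of all genes from 0.048 to 0.26 and that of the members to -0.26, so that the members' median stood -0.52 from the median of all genes, beside -0.51 with TMM factors. The lower calls were then 16 and not 24, without PDHB, PDK1, PDK3, MPC2, IDH3G, SUCLG2, ME2 and GLUD1. Across the alternatives this difference of medians ran from -0.41 with counts divided by 4 to -0.78 with DESeq2. The DESeq2 fit and the edgeR fit with no count filter (-0.77) covered 33380 genes, where the main fit covered 17971. Their medians over all genes were 0.28 and 0.25, and those of the members -0.50 and -0.52. Without either dBET1 library, PDHB, PDK1, PDK3, MPC2, IDH3G, OGDH, SUCLG2, ME1 and ME2 were not called, and GLUD1 was not called without dBET1 replicate 1. In these fits the lone dBET1 library is assumed to vary as the DMSO libraries do. Fold changes could stay about as large while the call was lost, as for PDK1 (log2 fold change -0.43 without dBET1 replicate 1 and -0.40 without replicate 2, beside -0.40 with both) and ME2 (-0.38 and -0.37, beside -0.36). PDK3 and ME1 were also not called without either DMSO library, and SUCLG2 was not called without DMSO replicate 1.

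**Figure D1:**
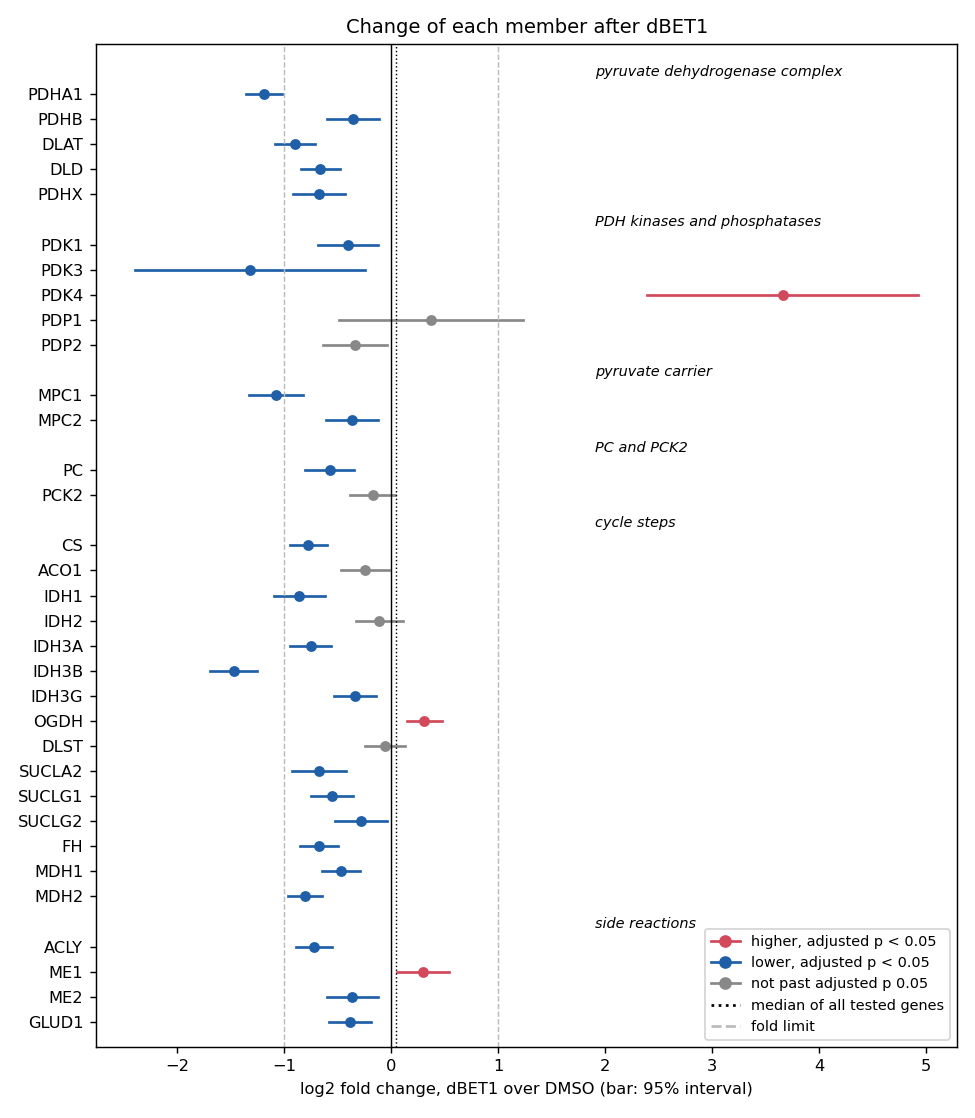
Log2 fold change of the 33 tested members (points, dBET1 over DMSO, edgeR) with its 95% interval (bars), grouped by role, with the median of all tested genes dotted and the limit of 1 dashed. The 24 blue members lie left of 0, PDK4 lies alone at 3.66, and OGDH and ME1 lie just right of 0.

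The sequences upstream of 4 members are shown because these had the largest called changes at abundant levels (PDHA1, MPC1 and IDH3B, lower) and the only rise past the limit (PDK4). They are read 5′ to 3′ on the gene's strand from RefSeq promoter windows of GRCh38.p14, and bases inside the GENCODE gene are left out. Capitals mark GGGCGG (the GC box) or its reverse complement CCGCCC, and CCGGAAG (the core bound by ETS factors).
PDHA1 (chrX:19343677-19343892, plus strand): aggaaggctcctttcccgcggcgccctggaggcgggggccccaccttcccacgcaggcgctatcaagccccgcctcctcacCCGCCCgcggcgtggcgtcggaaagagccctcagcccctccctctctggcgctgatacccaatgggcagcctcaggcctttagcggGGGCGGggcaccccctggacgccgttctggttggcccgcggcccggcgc
MPC1 (chr6:166383014-166383190, minus strand): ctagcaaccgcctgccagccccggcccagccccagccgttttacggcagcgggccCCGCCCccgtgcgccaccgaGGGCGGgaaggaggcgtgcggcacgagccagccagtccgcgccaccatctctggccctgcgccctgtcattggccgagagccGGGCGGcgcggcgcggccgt
IDH3B (chr20:2664220-2664466, minus strand): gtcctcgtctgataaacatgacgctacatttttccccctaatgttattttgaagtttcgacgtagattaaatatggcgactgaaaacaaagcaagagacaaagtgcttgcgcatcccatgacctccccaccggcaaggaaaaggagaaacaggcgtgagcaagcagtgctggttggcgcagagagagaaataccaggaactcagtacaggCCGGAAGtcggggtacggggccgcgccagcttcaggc
PDK4 (chr7:95596517-95596766, minus strand): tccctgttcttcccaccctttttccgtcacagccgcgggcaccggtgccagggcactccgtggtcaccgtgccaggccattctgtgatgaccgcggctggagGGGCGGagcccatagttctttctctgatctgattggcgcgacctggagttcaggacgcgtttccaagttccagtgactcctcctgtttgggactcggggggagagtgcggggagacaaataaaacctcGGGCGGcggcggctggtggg
Windows of 250 bases were present for 32 of the 34 members, in 44 entries, among 35116 entries in all. GGGCGG, on either strand, stood in 31 of the 44 (70.5%, beside 42.6% of all entries). CACGTG, the E-box that MYC and MAX bind and which is its own reverse complement, stood in 3 of the 44 (6.82%, beside 6.34%), upstream of PDHB, PDP2 and PDK2. CCGGAAG, or CTTCCGG, stood in 5 (11.4%, beside 8.52%), upstream of DLST, IDH3B, IDH3G, MDH2 and ME2, and TATAAA, or TTTATA, in 1 (2.27%, beside 10.7%), upstream of PDK1. Median GC content was 67.6% over the members' windows and 58.0% over all. No marked motif overlaps another in the printed windows. The GC box thus stood upstream of PDHA1 and MPC1, which were lower, and of PDK4, which was higher, and not in the window of IDH3B.

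All 5 genes of the PDH complex were lower, PDHA1 the most. Of all tested genes 27.6% were lower, and of those with a mean of at least 10 CPM 42.9%. PDHA1, the catalytic alpha subunit of E1 (chromosome X, 19343893 to 19361718, plus strand), measured 178 and 181 CPM with DMSO and 78.5 and 79.5 CPM with dBET1. Its level with dBET1 was 43.9% of that with DMSO (log2 fold change -1.19, standard error 0.0734, adjusted p = 1.86e-05). The groups were far apart and the replicates of each nearly equal. PDHB, the beta subunit of the same E1 enzyme, measured 46.5 and 43.0 CPM with DMSO and 37.2 and 32.8 CPM with dBET1, which is 78.1% (log2 fold change -0.36, standard error 0.105, adjusted p = 0.0216). The subunits of E1 thus fell by unequal amounts. DLAT, the E2 acetyltransferase, had 190 and 172 CPM with DMSO and 97.4 and 97.2 CPM with dBET1 (53.7%, adjusted p = 8.12e-05). DLD, the E3 subunit that PDH shares with other 2-oxoacid dehydrogenases, had 135 and 130 CPM with DMSO and 86.0 and 81.7 CPM with dBET1 (63.2%, adjusted p = 0.000282). PDHX, which binds E3 to the core, had 46.0 and 41.0 CPM with DMSO and 27.8 and 26.7 CPM with dBET1 (62.6%, adjusted p = 0.00112). None of the 5 had overlapping groups, with dBET1 below in each (beside 37.4% of all tested genes and 53% of the more abundant ones). The median log2 fold change of the complex was -0.67. PDHX shares 152 exonic bases with APIP on the opposite strand, and the counting is not stated to use strand. APIP had 1087 and 1033 counts with DMSO and 585 and 582 with dBET1, and its part in PDHX was not tested.

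Among the kinases and phosphatases of PDH 1 gene rose, 2 fell, 2 did not pass and 1 was not tested. Of the 5 tested 40% were lower and 20% higher, beside 27.6% and 28% of all tested genes. PDK4, the kinase gene known for its induction by fasting (chromosome 7, 95583499 to 95596516, minus strand), had 2 and 3 counts with DMSO and 33 counts in each dBET1 library. These are 0.0613 and 0.107 CPM with DMSO and 1.10 and 1.08 CPM with dBET1, and the groups did not overlap. The summed counts, scaled to library size, differed by a ratio of 13.2 (95% exact interval 5.40 to 42.1, counting error only), and the fitted change on the log2 scale was 3.66 (adjusted p = 0.000946, standard error 0.546). PDK4 entered the test through its counts in the dBET1 group, and its level there was still low. PDK1, the kinase gene with the highest CPM in these libraries, had 25.6 and 23.0 CPM with DMSO and 18.6 and 18.1 CPM with dBET1 (75.6%, adjusted p = 0.0226). PDK3 had 24 and 26 counts with DMSO and 8 and 12 with dBET1 (40.2%, adjusted p = 0.0423), and it was called in 2 of the 10 alternatives that tested it. PDK2 is listed at 0 counts in each library, which allows up to 0.0919 to 0.107 CPM. The phosphatase gene PDP2 had 43.1 and 34 CPM with DMSO and 30.1 and 30.8 CPM with dBET1, and its log2 fold change of -0.34 (95% interval -0.64 to -0.04) had an adjusted p of 0.0542. PDP1 had overlapping groups, at 2.36 and 1.25 CPM with DMSO and 2.0 and 2.69 CPM with dBET1 (log2 fold change 0.37, 95% interval -0.49 to 1.23, adjusted p = 0.424).

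The mix of kinase transcripts differed between the groups. When counts were divided by the length of each gene's canonical transcript, PDK4 made up 0.755% and 1.35% of the summed kinase level with DMSO and 17.2% and 16.5% with dBET1. PDK1 made up 80.5% and 74.5% with DMSO and 74.2% and 71.0% with dBET1, and PDK3 18.7% and 24.2% with DMSO and 8.6% and 12.4% with dBET1. The groups did not overlap for any of these 3 kinases, narrowly so for PDK1 with this length. The shares of a library sum to a fixed total, so these are not separate results. PDK3 and PDK4 rest on few counts (8 to 26 and 2 to 33 in a library). The levels of single genes often did not overlap either (37.4% of all tested genes with dBET1 below and 41.9% above). With the length of all annotated exons joined instead, the mean share of PDK4 was 1.10% with DMSO and 16.0% with dBET1. That of PDK3 was 2.81% with DMSO and 1.27% with dBET1, and that of PDK1 was 96.1% and 82.7%. The canonical transcript of PDK3 is 1741 bases and its joined exons 17456. The shares of PDK3 and PDK1 thus depend on which of these 2 lengths is used, and that of PDK4 hardly differs between them. This does not make the PDK4 share free of length, because both lengths of PDK1 (14072 and 14845 bases) far exceed those of PDK4 (3601 and 4544). By plain counts PDK1 had 558 and 554 with dBET1, beside 33 of PDK4 in each library.

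**Figure D2:**
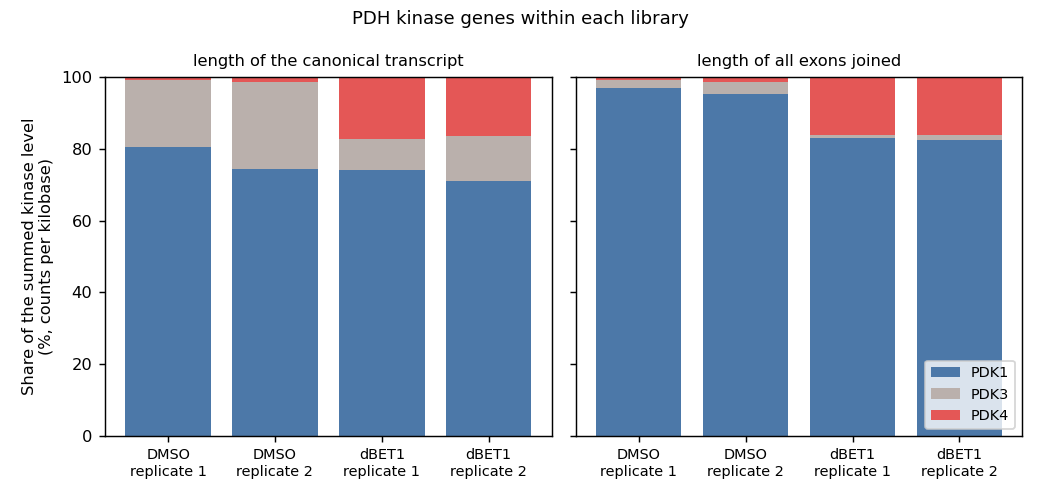
Share of PDK1, PDK3 and PDK4 in their summed level per kilobase (%, stacked bars) in each of the 4 libraries, with 2 choices of gene length; PDK2 is at 0. The red PDK4 segment is 0.755% to 1.44% in the DMSO libraries and 16.0% to 17.2% in the dBET1 libraries with either length.

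Both genes of the mitochondrial pyruvate carrier were lower, by unequal amounts. MPC1 (chromosome 6, 166364919 to 166383013, minus strand) had 41.5 and 46.8 CPM with DMSO and 21.0 and 20.9 CPM with dBET1, which is 47.5% (log2 fold change -1.07, standard error 0.108, adjusted p = 0.000133). MPC2, its partner in the same heterodimer, had 87.6 and 106 CPM with DMSO and 76.6 and 73.4 CPM with dBET1, which is 77.7% (adjusted p = 0.0192). The DMSO libraries differed more from each other for MPC2 than the dBET1 libraries did. MPC2 shares 575 exonic bases with DCAF6 on the opposite strand, whose counts were 2202 and 1797 with DMSO and 1865 and 1903 with dBET1.

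PC, the pyruvate carboxylase that makes oxaloacetate, had 42.7 and 45.8 CPM with DMSO and 29.1 and 30.3 CPM with dBET1, which is 67.1% (log2 fold change -0.58, adjusted p = 0.00173). The groups did not overlap. PC shares 621 exonic bases with LRFN4 on the opposite strand, whose counts went from 2342 and 2538 to 442 and 372, and the part of this in PC was not tested. PCK2, the mitochondrial enzyme that makes phosphoenolpyruvate from oxaloacetate, had 42.5 and 45.2 CPM with DMSO and 39.5 and 38.3 CPM with dBET1. Its log2 fold change was -0.17 (95% interval -0.39 to 0.04, adjusted p = 0.143), and under total counts only it was 0.036.

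Of the 15 genes of the cycle steps, which include the cytosolic enzymes ACO1, IDH1 and MDH1, 11 were lower, 1 was higher and 3 did not pass. The lower ones made up 73.3%, beside 27.6% of all tested genes and 42.9% of those with a mean of at least 10 CPM. The median log2 fold change of the 15 was -0.55. CS, citrate synthase, had 509 and 467 CPM with DMSO and 286 and 285 CPM with dBET1 (58.5%, adjusted p = 0.000103). ACO1, the cytosolic aconitase that also acts as an iron-responsive RNA-binding protein, had 55.1 and 50.7 CPM with DMSO and 46.7 and 42.6 CPM with dBET1 (log2 fold change -0.24, 95% interval -0.47 to -0.02, adjusted p = 0.0624). CS had the second highest level per kilobase of canonical transcript among the members in both groups, and ACO1 did not pass the test.

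The isocitrate dehydrogenases differed among themselves. IDH3B, a regulatory subunit of the NAD-dependent enzyme of the cycle (chromosome 20, 2658395 to 2664219, minus strand), had 220 and 258 CPM with DMSO and 85.2 and 87.1 CPM with dBET1. This was the lowest log2 fold change among the members, -1.47 (standard error 0.0943, adjusted p = 2.09e-05), a level of 36.1%. IDH3A, the catalytic subunit, had 86.3 and 86.2 CPM with DMSO and 50.0 and 52.5 CPM with dBET1 (59.4%, adjusted p = 0.000205). IDH3G, the other regulatory subunit, had 75.8 and 75.3 CPM with DMSO and 58.1 and 61.5 CPM with dBET1 (79.1%, adjusted p = 0.00995). The 3 subunits of one enzyme thus stood at 36.1%, 59.4% and 79.1% of their DMSO levels. IDH3G shares 267 exonic bases with SSR4 on the opposite strand, which had 5895 and 5717 counts with DMSO and 4300 and 4237 with dBET1. Of the NADP-dependent enzymes, the cytosolic IDH1 had 58.0 and 50.6 CPM with DMSO and 29.7 and 30.3 CPM with dBET1 (55.2%, adjusted p = 0.000316). The mitochondrial IDH2 had 42.3 and 42.6 CPM with DMSO and 40.7 and 37.9 CPM with dBET1. Its log2 fold change was -0.11 (95% interval -0.32 to 0.11, adjusted p = 0.345), and with total counts only it was 0.10.

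The 2-oxoglutarate dehydrogenase complex did not move as the PDH complex did. OGDH, its E1 enzyme (chromosome 7, 44606572 to 44709066, plus strand), had 168 and 172 CPM with DMSO and 213 and 208 CPM with dBET1, which is 124% (log2 fold change 0.31, standard error 0.0704, adjusted p = 0.00705). Both dBET1 libraries lay above both DMSO libraries, and with 1 dBET1 library left the log2 fold change was 0.29 (adjusted p = 0.124, without replicate 1) and 0.31 (adjusted p = 0.0973, without replicate 2). DLST, its E2 enzyme, had overlapping groups, at 87.7 and 83.7 CPM with DMSO and 84.2 and 80.5 CPM with dBET1 (log2 fold change -0.06, 95% interval -0.25 to 0.13, adjusted p = 0.566). The sign of DLST depended on the scaling and the count filter. DLD, described above, is the E3 of both complexes and was lower.

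Of the later steps, the 6 genes of this set were all lower at an adjusted p under 0.05 (edgeR), SUCLG2 narrowly so. Of all tested genes 27.6% were lower, and of those with a mean of at least 10 CPM 42.9%. SUCLG1, the alpha subunit of succinyl-CoA ligase, had 114 and 105 CPM with DMSO and 72.4 and 77.4 CPM with dBET1 (68.3%, adjusted p = 0.00115). SUCLA2, the ATP-forming beta subunit, had 44.3 and 43.7 CPM with DMSO and 29.7 and 25.6 CPM with dBET1 (62.8%, adjusted p = 0.0014). SUCLG2, the GTP-forming beta subunit, had 32.9 and 31.0 CPM with DMSO and 26.7 and 25.8 CPM with dBET1 (82.2%, adjusted p = 0.0478), and was called in 2 of 12 alternatives. None of the 3 had overlapping groups, with dBET1 below in each (beside 37.4% of all tested genes and 53% of the more abundant ones). FH, fumarase, had 266 and 254 CPM with DMSO and 156 and 170 CPM with dBET1 (62.7%, adjusted p = 0.000253). MDH2, the mitochondrial malate dehydrogenase, had 518 and 534 CPM with DMSO and 300 and 303 CPM with dBET1 (57.3%, adjusted p = 5.86e-05). MDH1, the cytosolic one, had 154 and 144 CPM with DMSO and 106 and 110 CPM with dBET1 (72.3%, adjusted p = 0.00161).

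Of the 4 enzymes of side reactions, 3 were lower and 1 was higher. The lower ones made up 75%, beside 27.6% of all tested genes and 42.9% of those with a mean of at least 10 CPM. ACLY, which splits cytosolic citrate into acetyl-CoA and oxaloacetate, had 495 and 460 CPM with DMSO and 293 and 287 CPM with dBET1 (60.7%, adjusted p = 0.000132). GLUD1, glutamate dehydrogenase, had 174 and 157 CPM with DMSO and 124 and 130 CPM with dBET1 (76.6%, adjusted p = 0.0055). It shares 464 exonic bases with SHLD2 on the opposite strand, whose counts went from 2619 and 2013 to 912 and 954. The malic enzymes, which make pyruvate from malate, differed in direction. ME2, the mitochondrial one, had 47.7 and 41.8 CPM with DMSO and 35.1 and 34.6 CPM with dBET1 (77.8%, adjusted p = 0.0181). ME1, the cytosolic one, had 23.5 and 23.8 CPM with DMSO and 29.4 and 28.6 CPM with dBET1 (123%, log2 fold change 0.30, adjusted p = 0.0435), and was called in 4 of 12 alternatives.

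**Figure D3:**
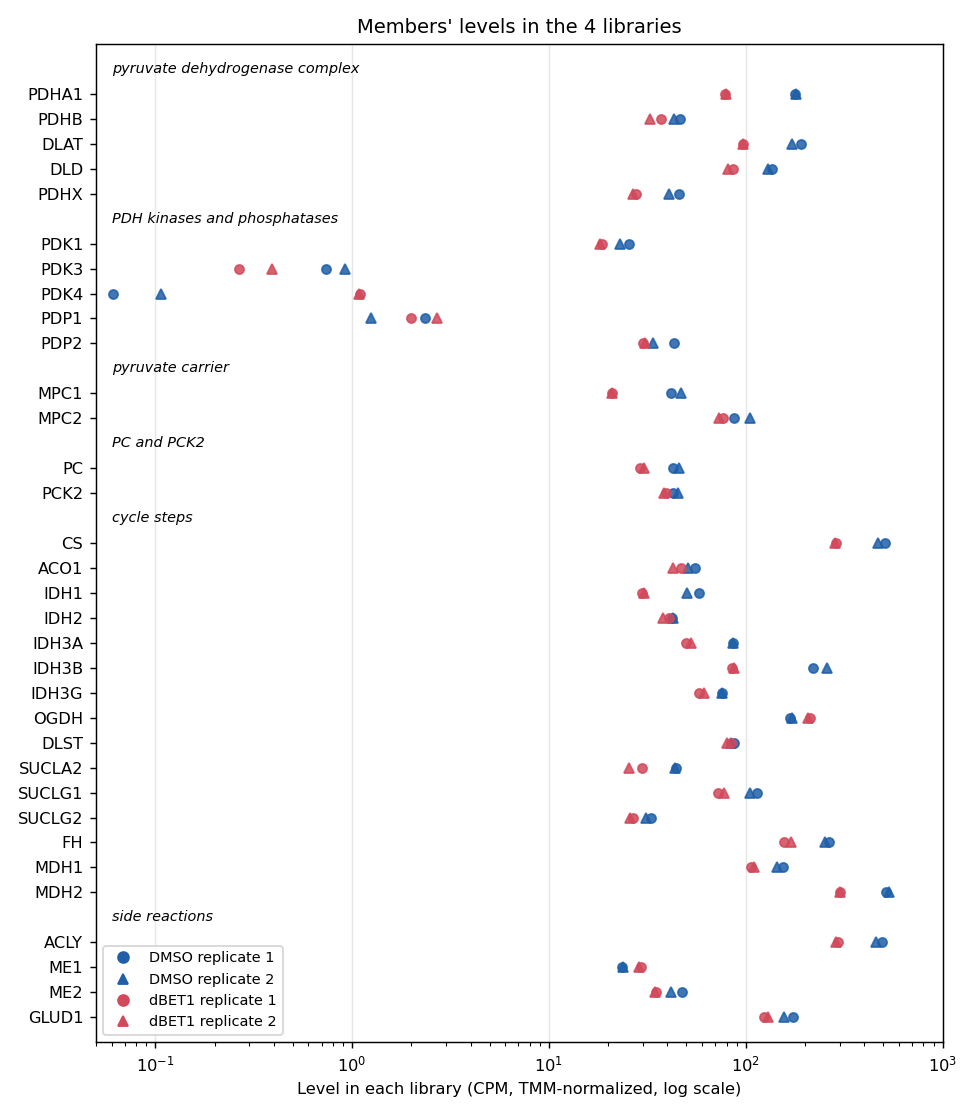
Level of each of the 33 tested members in the 4 libraries (CPM, log scale), grouped by role; PDK2, at 0, cannot be drawn on this axis. The dBET1 points lie left of the DMSO points in 28 members, right of them in PDK4, OGDH and ME1, and among them in PDP1 and DLST.

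Levels were set side by side after division by the length of the canonical transcript. The joined exons are longer by unequal factors, at 9350 against 1791 bases for FH, 6401 against 2915 for CS and 2567 against 1542 for IDH3B. The order below therefore holds for canonical lengths only, and the order with joined exons was not computed. MDH2 was first with DMSO, at 242 CPM per kilobase, followed by CS at 167, IDH3B at 155, FH at 145, MDH1 at 115 and ACLY at 111. The libraries of CS and IDH3B overlapped in this measure, and so did those of IDH3B and FH and those of MDH1 and ACLY. With dBET1 the order began with MDH2 at 139, CS at 98.0, FH at 91.0, MDH1 at 83.3, ACLY at 67.6 and SUCLG1 at 59.0, and IDH3B was seventh at 55.9. PDHA1 went from place 9 to 15 among the 34, and OGDH from place 14 to 8. The kinases were low in this measure, with PDK1 at 1.73 CPM per kilobase with DMSO and 1.31 with dBET1.

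Ratios between members were taken within each library, where they do not depend on the scaling. For 12 of 14 fixed pairs a ratio could be formed, and PDK1/PDK2 and PDK3/PDK2 had no value because PDK2 was at 0. In each of the 12 the groups did not overlap. The share over gene pairs in general was not computed, and single genes often did not overlap either (37.4% of all tested genes with dBET1 below and 41.9% above). With 2 libraries against 2 the exact permutation test (two-sided) cannot give a p below 0.333, which each pair had, before and after Benjamini-Hochberg adjustment over the 12. PDHA1 had 3.83 and 4.21 times the counts of PDHB with DMSO and 2.11 and 2.42 times with dBET1, a log2 difference of -0.83. MPC1 had 0.474 and 0.443 times the counts of MPC2 with DMSO and 0.274 and 0.285 times with dBET1 (log2 difference -0.71). IDH1 had more counts than IDH2 with DMSO, 1.37 and 1.19 times, and fewer with dBET1, 0.728 and 0.800 times (log2 difference -0.74). IDH1 and IDH2 thus changed places by counts. IDH3A against IDH3B went from 0.393 and 0.334 to 0.586 and 0.603 (log2 difference 0.71). DLST against DLAT, the E2 enzymes of both complexes, went from 0.461 and 0.487 to 0.864 and 0.827 (log2 difference 0.84). ME1 against ME2 went from 0.492 and 0.569 to 0.839 and 0.827 (log2 difference 0.65). The smallest differences were those of DLAT against PDHX, at -0.22, and MDH1 against MDH2, at 0.34. SUCLG2 against SUCLA2 differed by 0.39, PCK2 against PC by 0.40, PC against PDHA1 by 0.61 and PDP1 against PDP2 by 0.76. OGDH against PDHA1, a pair added after the values were seen and not tested, went from 0.939 and 0.951 to 2.71 and 2.61 (log2 difference 1.495).

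**Figure D4:**
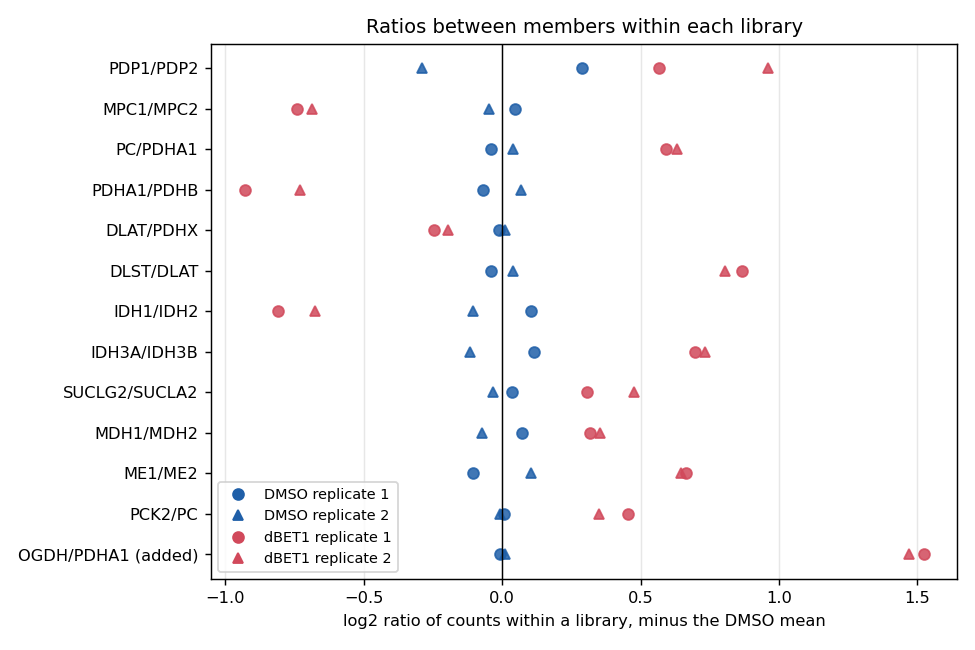
Log2 ratio of counts between members of a pair within each library, minus the mean of the DMSO libraries (points, 4 libraries per pair), for the 12 fixed pairs and 1 added pair. In each pair both dBET1 points lie on one side of the DMSO points, from -0.83 for PDHA1/PDHB to 1.495 for OGDH/PDHA1 in the mean.

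Genes of neighbouring steps were taken from 10 lists with 72 genes, of which 64 were tested. At an adjusted p under 0.05 from edgeR 33 were lower (51.6%, beside 27.6% of all tested genes and 42.9% of those with a mean of at least 10 CPM) and 13 were higher (20.3%, beside 28% and 22%), with a median log2 fold change of -0.32. These shares lie near those of the more abundant genes, and the counts of the single lists, of 3 to 8 genes, are given as a description. Complex II, the succinate dehydrogenase that completes the cycle, had 6 of 8 genes lower, SDHD with the smallest p among them (130 and 132 CPM with DMSO, 71.4 and 72.1 CPM with dBET1). The assembly factor genes SDHAF3 (log2 fold change -1.03) and SDHAF4 (1.32, from 1.5 and 2.74 to 6.26 and 4.26 CPM) went in opposite directions. In 5 of 6 genes for mitochondrial carriers of cycle intermediates the level was lower. SLC25A21, the carrier of 2-oxoadipate and 2-oxoglutarate, went from 38.6 and 36.0 to 7.26 and 8.42 CPM (21.0%), and SLC25A13, an aspartate-glutamate carrier, had a log2 fold change of -1.31. Among the genes for lipoylation and cofactors 3 of 8 were lower and 1 was higher, with LIPT2, an octanoyltransferase of lipoylation, at 1.43. On the list of other 2-oxoacid dehydrogenase genes 1 of 6 tested was lower and 2 were higher. The lower one was PDPR at -0.38, a regulatory subunit of PDH phosphatase and not of another dehydrogenase. The higher ones were BCKDHA at 0.57 and DHTKD1, an E1 enzyme related to OGDH, at 0.73.

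On the glutamine and aminotransferase list 4 of 7 tested genes were lower and 1 was higher, with GOT2, the mitochondrial aspartate aminotransferase, at -1.12 and GPT, an alanine aminotransferase, at 1.85 from 1.23 and 1.78 to 4.70 and 6.09 CPM. On the lactate and pyruvate list 4 of 6 tested genes were lower and 2 were higher. LDHA, which turns pyruvate into lactate, went from 1143 and 1099 to 307 and 303 CPM, which is 27.2% (log2 fold change -1.88, adjusted p = 3.53e-06). This was a larger fall than that of any of the 33 tested members. LDHB had a log2 fold change of -1.03, and PKLR, the pyruvate kinase gene of liver and red cells, one of -1.93. Among genes for acetyl-CoA sources and uses 5 of 8 were lower and 3 were higher. FASN, fatty acid synthase, had a log2 fold change of -1.23 and ACSS1, a mitochondrial acetyl-CoA synthetase, one of -2.36, while CPT2, which imports fatty acids for oxidation, rose from 25.7 and 25.1 to 69.8 and 70.2 CPM (1.46) and ACACB rose from 0.552 and 0.640 to 1.37 and 1.38 CPM (1.20). On the propionyl-CoA list 1 of 4 was lower, PCCB at -0.85, and 1 was higher. Of the tissue-restricted relatives 3 of 6 were tested with edgeR and none passed, although 1 had an unadjusted p under 0.05. Of 8 tested genes of regulators known to act on the pathway 4 were lower and 2 were higher. The lower ones, named here although only the higher ones passed both thresholds, were PPARA at -0.97, MYC at -0.73, ESRRA at -0.67 and NRF1 at -0.41. The higher ones were FOXO3 at 1.39 (from 22.2 and 22.1 to 58.9 and 57.1 CPM) and FOXO1 at 1.18 (from 3.92 and 4.23 to 9.40 and 9.07 CPM).

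**Figure D5:**
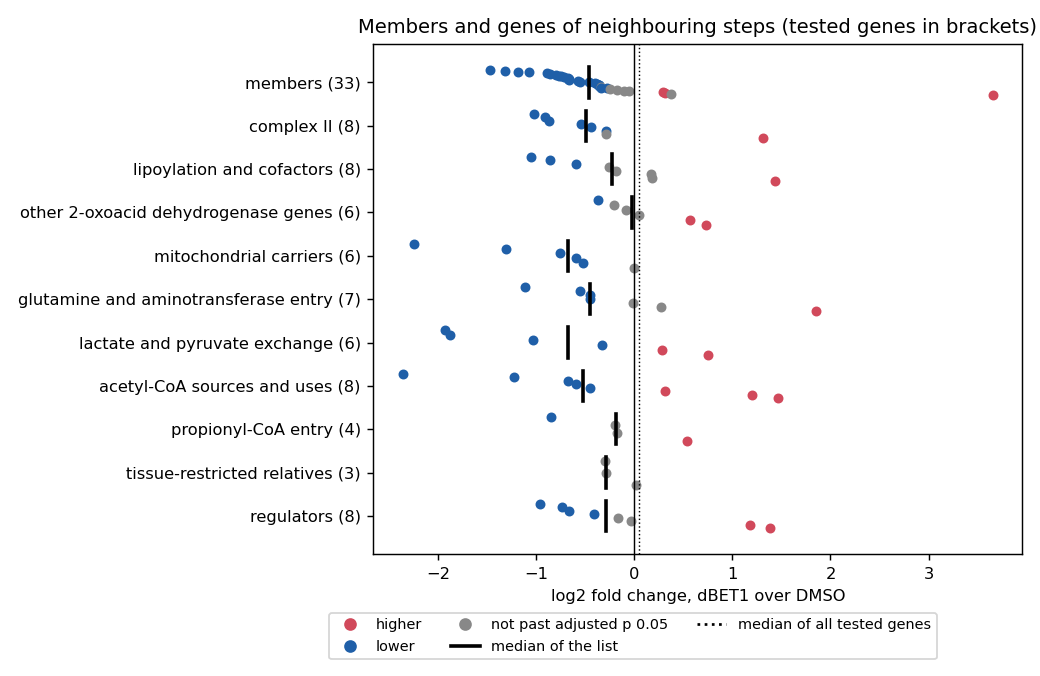
Log2 fold change (dBET1 over DMSO, edgeR) of the members and of the tested genes of 10 neighbouring lists (points, coloured by call), with the median of each list as a bar and the median of all tested genes dotted. The members' median is -0.47, and the lists' medians run from -0.68 for lactate and pyruvate exchange to -0.022 for other 2-oxoacid dehydrogenase genes.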

How the data were processed

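Per the labels and the study's methods, the reads were 150 bp paired-end, aligned to hg38 with HISAT2 (version 2.2.0) and summarized with StringTie, and the authors deposited whole-number counts per Ensembl gene without normalization. How these counts were made from the abundances, and whether strand was used, is not given in the sources used here. The labels name TRIzol for RNA extraction and a TruSeq RNA kit, and the study's methods name an RNeasy kit. The 4 columns were mapped to samples by group and replicate number (NC columns to DMSO), and 0 columns and 0 rows were left out. Symbols, coordinates and lengths came from GENCODE release 44 (56105 of 64252 identifiers matched), and promoter windows from RefSeq.

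Counts were filtered with filterByExpr, scaled with TMM factors and tested with edgeR 4.0.16 (quasi-likelihood, group alone, R 4.3.3). Benjamini-Hochberg adjustment covered the 17971 genes tested, and the standard error is the log2 fold change divided by the square root of F. Totals of 28019956 to 34685645 counts left the difference between replicates above counting error (chi-square per degree of freedom 23.6 for DMSO and 8.14 for dBET1). The intervals of log2 fold changes come from the edgeR fit and include the spread between replicates, while the exact interval of the PDK4 ratio and the floors (3 counts) cover counting error only. The members, lists and tests were chosen with earlier results of these data known. Named genes are the 34 members, list genes past both thresholds, and the smallest p of each list, with genes that overlap a member; some items that this rule names are not reported here. Alternatives were DESeq2 1.42.0, other scalings and count filters, a replicate block, each library left out, and counts divided by 2 or 4.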

Additional observations from a re-analysis of the deposited data

How the results depend on the processing

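The 24 lower and 3 higher members were 16 to 26 and 1 to 3 across 12 alternatives, and with each library left out 16 to 25 were lower and 1 to 2 were higher, the fewest without dBET1 replicate 1. Past both thresholds the 4 lower members were 1 with total counts only and 2 with counts divided by 4, and 3 with each library left out; the 1 higher member (PDK4) was 0 with at least 10 counts in every library and with counts divided by 4, which remove it from the test, and 1 with each library left out. The members' median of -0.47 was -0.26 with total counts only, -0.52 with no count filter, -0.40 with at least 10 counts in every library, -0.40 with counts divided by 4, and -0.55 to -0.45 with each library left out. The 13 higher and 33 lower neighbouring genes were 7 to 13 and 27 to 37 with each library left out, 7 without dBET1 replicate 1. With the replicate block 23 members were lower and 2 higher and the median was -0.47. The block lost PDK3, SUCLG2 and ME1 and added PDP2. The labels do not say whether replicate numbers pair the libraries. The deviations of DMSO and dBET1 replicate 1 correlated at -0.0075 across genes, which with 2 libraries per group cannot settle it. DESeq2 gave 22 lower and 2 higher members. Without DMSO replicate 1 PCK2 was called lower, and without DMSO replicate 2 PDP2 and ACO1 were.

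Signs changed only for members that were not called. PDP1 ran from -0.041 without DMSO replicate 2 to 0.88 without DMSO replicate 1. With total counts only PCK2 was 0.036, IDH2 0.10 and DLST 0.15, and DLST was 0.012 with at least 10 counts in every library and 0.010 with counts divided by 4. At lower depth SUCLG2 was not called (counts divided by 2 or 4), and PDK3 and PDK4 stayed called with counts divided by 2 and were not tested with counts divided by 4. Apart from the genes or libraries that a setting removes, the cause was not tested.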
